A study of Mus musculus with 60 samples.

Results

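Btg1, Btg2, Tob1, Tob2, Ier2, Ier5, Tiparp and Arl4d are 8 genes that are transcribed soon after a stimulus or belong to the family of one that is. They were followed through 10 deposited tables of gene expression in the mouse hippocampus, as 8 of the 13986 genes held in at least 1 table. The genes were found by symbol, and each was listed in all 10 tables. The set was chosen by name with the treatment responses of these same tables known, and the response of Btg2 to Restraint and that of Arl4d to Restraint and Swim had already been seen. The values after treatment are therefore given as descriptions, and neither their number nor their direction is evidence about the set.

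All mice were wild type C57BL/6 at postnatal day 105. Poly(A)-enriched RNA came from whole, dorsal or ventral hippocampus, and the conditions were Homecage, which is the untreated reference, Handling, Restraint and Swim, with tissue taken 45 minutes after treatment. The 60 libraries form 12 groups of 5, with 5 mice per condition in the design text. Whether a dorsal and a ventral library came from 1 mouse is not stated in the labels. If libraries of 1 group shared a source, the p-values would measure only the spread between those libraries.

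BTG and TOB proteins form a family of antiproliferative proteins that bind the CAF1 deadenylases of the CCR4-NOT complex and so speed the shortening of poly(A) tails. Ier2 and Ier5 encode nuclear proteins of the immediate early response, and IER5 binds the phosphatase PP2A and acts on the heat shock factor HSF1. Tiparp encodes a mono-ADP-ribosyltransferase that is induced by the aryl hydrocarbon receptor and represses it. Arl4d encodes a small GTPase that brings cytohesins, the exchange factors of ARF6, to the plasma membrane. In the hippocampus, genes of the immediate early class are switched on within minutes by neuronal activity, by growth factors and by hormones.

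The promoters of Btg2, Arl4d and Btg1 are shown because the first pair rose after Restraint in every region and shared a motif, while Btg1, the closest relative of Btg2, passed the threshold in no treatment table. The sequences are RefSeq promoters on GRCm38.p6 and run from 250 bases before the start of the gene to 50 after it. Capitals mark each match to TGACG on either strand (CGTCA where the match lies on the other strand), and TGACGTCA, the cyclic AMP response element to which CREB binds, consists of a match on each strand that overlap. The Btg2 promoter lies at chr1:134079106-134079405 on the minus strand, that of Arl4d at chr11:101665291-101665590 on the plus strand and that of Btg1 at chr10:96616751-96617050 on the plus strand.
Btg2: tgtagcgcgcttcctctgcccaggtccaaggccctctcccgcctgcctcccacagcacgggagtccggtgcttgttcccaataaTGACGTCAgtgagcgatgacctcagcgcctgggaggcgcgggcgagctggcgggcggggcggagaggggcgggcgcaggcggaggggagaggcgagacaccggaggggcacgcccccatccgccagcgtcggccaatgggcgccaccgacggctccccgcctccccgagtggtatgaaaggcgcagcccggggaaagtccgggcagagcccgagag
Arl4d: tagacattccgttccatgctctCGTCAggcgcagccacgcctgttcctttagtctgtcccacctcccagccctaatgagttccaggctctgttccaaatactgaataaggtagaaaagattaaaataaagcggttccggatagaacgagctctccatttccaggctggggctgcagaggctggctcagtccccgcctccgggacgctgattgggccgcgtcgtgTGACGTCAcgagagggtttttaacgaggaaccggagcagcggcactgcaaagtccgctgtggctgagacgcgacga
Btg1: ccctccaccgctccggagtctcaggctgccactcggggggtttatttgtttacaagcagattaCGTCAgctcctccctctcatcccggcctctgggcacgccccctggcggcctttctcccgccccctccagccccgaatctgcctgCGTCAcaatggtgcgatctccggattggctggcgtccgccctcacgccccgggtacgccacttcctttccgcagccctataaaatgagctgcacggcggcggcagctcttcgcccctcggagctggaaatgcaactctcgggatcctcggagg
The full element TGACGTCA was found in the Btg2 promoter, where its first base is at -166 relative to the start, and in the Arl4d promoter, where it is at -26. Among all 32851 promoters of the table, 1.79% held it on either strand. The shorter TGACG was in 20.8% of promoters. Arl4d had a further match to it at -228, Btg1 had matches at -187 and -103, and Tob1 had 1 at -96. The promoters of Tob2, Ier5 and Tiparp held neither motif. Of these genes Tiparp rose in 7 of the 9 treatment tables and Tob2 in 3, while Ier5 passed in none. Ier2, which rose in 6, had no entry among the 7 of 8 genes matched. The core of the dioxin response element, GCGTG, through which the aryl hydrocarbon receptor acts, was in 32.4% of promoters, the CArG box of serum response factor in 1.63% and the glucocorticoid response element GNACANNNTGTNC in 0.475%, all on both strands. The core GCGTG was in every promoter of the 7 other than that of Ier5, with 2 matches in Btg1 and 1 each in Btg2, Tob1, Tob2, Arl4d and Tiparp, where it is at -170. None of the 7 promoters held a match to the CArG box or to the glucocorticoid element. These matches describe the letters of the windows and not the binding of a factor. The printed promoters were chosen by response and motif, so how response and motif go together among them was fixed by that choice.

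The deposited values are group means of estimated counts, so no spread between single mice can be shown, and the replicate error enters only through the authors' p-values. Each table held 13610 to 13784 genes, and the mean depth of a group over these genes was 19.9M to 25.0M counts (M, mega). The hippocampal neuron markers Prox1, Dsp, C1ql2, Wfs1, Fibcd1, Mpped1, Grik4 and Bok were listed in every table (8 of 8). Choroid plexus markers stood apart most in 2 groups. Levels are given in CPM, the mean count of a gene scaled to the total of its group so that groups of unlike depth can be set side by side. The summed level of these markers was 186 to 243 CPM in the Homecage groups, 2158 after dorsal Restraint and 2072 after ventral Handling, and 213 to 337 in the other 7 treated groups. Of the choroid plexus markers listed in the authors' deposited tables, 5 of 10 rose after dorsal Restraint and 12 of 12 after ventral Handling, while 1 of 8 rose after whole Handling, 2 of 11 after whole Restraint and 1 of 8 after ventral Restraint. Of their 85 values in the 9 treatment tables, 45 were higher at an unadjusted p under 0.05, and their median log2 fold change was above 0 in each (0.19 to 2.97). The part of that tissue in the values of the 8 genes was not tested. Endothelial markers (12 of 12 listed) and blood markers (5 of 5 listed) passed the authors' adjusted p of 0.05 in none of the 9 treatment tables, with 8 of 108 and 12 of 45 values at an unadjusted p under 0.05. Log2 fold changes followed the GC content of the transcripts, with Spearman's rho across genes of 0.45, 0.39 and 0.70 for ventral Handling, Restraint and Swim, and of -0.34, -0.47 and -0.60 for the same treatments in dorsal hippocampus. In whole hippocampus rho was -0.27, 0.27 and 0.30. Genes are not independent replicates, so these values describe each table. The 8 genes spread widely on this scale, from 41.1% GC for Tiparp and 44.8% for Btg1 to 55.7% for Arl4d and 60.9% for Ier2.

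Across the 9 treatment tables and 8 genes, 29 of 72 values passed the authors' adjusted p of 0.05, all of them higher than Homecage. None of the 72 passed as lower, and 1 of 72, Btg1 after ventral Swim, was lower at an unadjusted p under 0.05. Arl4d and Tiparp rose in 7 tables each, Btg2 and Ier2 in 6 each and Tob2 in 3, while Btg1, Tob1 and Ier5 passed in none. By table, the number that rose in whole hippocampus was 2 of 8 after Handling, where 0.366% of all genes were called higher, 5 of 8 after Restraint (0.504% of all genes) and 3 of 8 after Swim (0.336%). In dorsal hippocampus 1 of 8 rose after Handling (0.118% of all genes), 3 after Restraint (0.381%) and 2 after Swim (0.359%). In ventral hippocampus 4 of 8 rose after Handling (0.813% of all genes), 4 after Restraint (1.48%) and 5 after Swim (4.65%). Because the genes were chosen with these contrasts known, nothing is read from the counts against the background. For reference, Fos, Egr1 and Sgk1 passed in all 9 of the authors' deposited tables, with log2 fold changes of 1.35 to 2.06, 0.61 to 1.07 and 0.36 to 1.00. In these bulk samples a change in the number of expressing cells and a change in the RNA of each cell cannot be told apart.

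**Figure D1:**
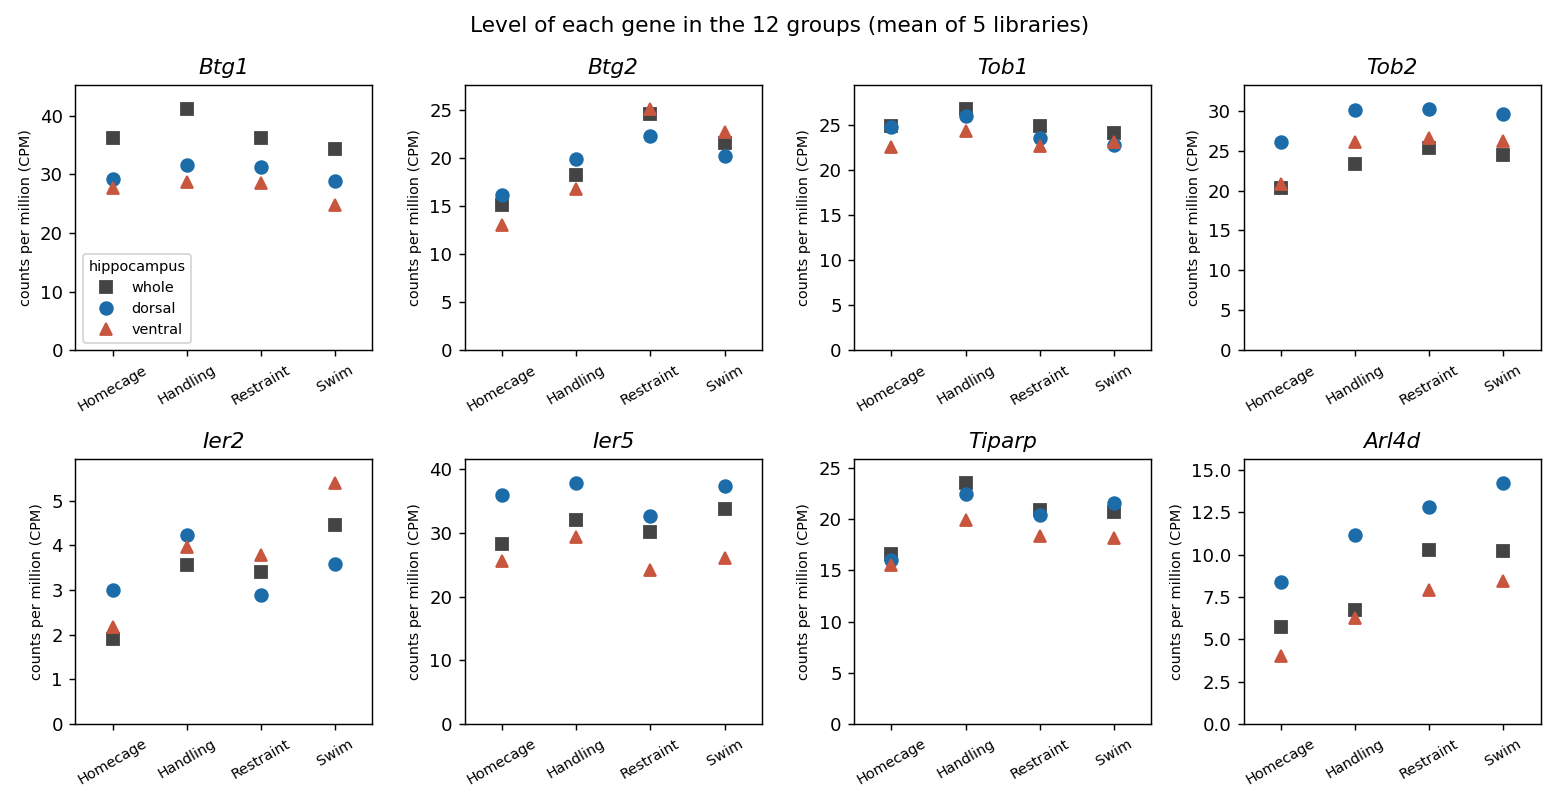
Level of each of the 8 genes in CPM (vertical axes, starting at 0) in the 12 groups, each point being the mean of 5 libraries as deposited, with squares for whole, circles for dorsal and triangles for ventral hippocampus. Btg2 and Arl4d are lowest in Homecage in all 3 regions, and Arl4d is higher in dorsal than in ventral hippocampus in every condition.

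Btg2, which slows the cell cycle and promotes deadenylation, had its highest level after Restraint in every region. Its mean level in whole hippocampus was 15.1 CPM in Homecage, 18.3 after Handling, 24.6 after Restraint and 21.6 after Swim. In dorsal hippocampus the levels in the same order were 16.2, 20.0, 22.4 and 20.3 CPM. In ventral hippocampus they were 13.1, 16.8, 25.1 and 22.7 CPM. The order of the 4 conditions was the same in all 3 regions, from Homecage through Handling and Swim to Restraint. This is an order of group means. In the difference test described below, Swim minus Restraint was -0.19, -0.16 and -0.14 in whole, dorsal and ventral hippocampus. None of these had an unadjusted p under 0.05 (0.140, 0.229 and 0.261). Dorsal Swim minus Handling was 0.02 (unadjusted p 0.901). The authors' deposited tables give a log2 fold change after Restraint of 0.70 in whole (standard error derived from the p-value 0.08, adjusted p 1.65e-14), 0.47 in dorsal (0.09, 6.66e-05) and 0.95 in ventral hippocampus (0.09, 1.14e-20). After Swim they give 0.52 in whole (adjusted p 3.99e-05), 0.31 in dorsal (adjusted p 0.136) and 0.81 in ventral hippocampus (adjusted p 3.52e-20). After Handling, ventral hippocampus passed at 0.36 (adjusted p 0.00609), and whole and dorsal hippocampus gave 0.28 (adjusted p 0.175) and 0.29 (adjusted p close to 1, derived standard error 0.12). The 6 calls of Btg2 were also made after the trend on GC content was subtracted.

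Among the relatives of Btg2, Tob2 was the 1 that passed in any treatment table. Btg1 was measured at 606 to 819 mean counts, and its log2 fold changes in the authors' deposited tables lay between -0.15 and 0.18. In each region its level was lowest after Swim and highest after Handling, but no value passed (lowest adjusted p 0.104, for ventral Swim). Tob1, a deadenylation factor that also carries a site for poly(A)-binding protein, stayed between 22.6 and 26.8 CPM over the 12 groups. Its log2 fold changes ran from -0.12 to 0.10, with 95% intervals in ventral Restraint of -0.16 to 0.20 and in whole Restraint of -0.15 to 0.14. Tob2, the paralog of Tob1, was lowest in Homecage in all 3 regions and had positive values in 9 of 9 tables, from 0.19 to 0.36. In whole hippocampus its level was 20.3, 23.4, 25.4 and 24.5 CPM in Homecage, Handling, Restraint and Swim. In dorsal hippocampus these were 26.1, 30.1, 30.2 and 29.6, and in ventral hippocampus 20.8, 26.1, 26.5 and 26.2. Tob2 passed in 3 of the authors' deposited tables, at 0.31 in whole Restraint (adjusted p 0.0436), 0.36 in ventral Restraint (adjusted p 0.0158) and 0.33 in ventral Swim (adjusted p 0.0246). After the GC trend was subtracted, ventral Restraint remained past the threshold (adjusted p 0.0444), while whole Restraint (0.30, adjusted p 0.0704) and ventral Swim (0.26, 0.353) did not. Btg3, the other listed member of the family, passed in no table and had log2 fold changes of 0.11 to 0.78.

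Arl4d had the lowest level in Homecage of every region and rose in all 6 tables of Restraint and Swim. Its level in whole hippocampus was 5.71 CPM in Homecage, 6.74 after Handling, 10.3 after Restraint and 10.2 after Swim. In dorsal hippocampus it was 8.36, 11.1, 12.8 and 14.2 CPM in the same order. In ventral hippocampus it was 4.03, 6.25, 7.94 and 8.43. Dorsal Homecage, at 8.36, was close to ventral Swim, at 8.43, the highest ventral group. In the authors' deposited tables the log2 fold change after Restraint was 0.85 in whole (derived standard error 0.13, adjusted p 3.18e-08), 0.62 in dorsal (0.13, 0.000552) and 0.99 in ventral hippocampus (0.14, 3.06e-10). After Swim it was 0.84 in whole (adjusted p 5.38e-07), 0.75 in dorsal (adjusted p 3.05e-07) and 1.06 in ventral hippocampus (adjusted p 2.03e-10). After Handling it was 0.25 in whole (adjusted p 0.998), 0.41 in dorsal (adjusted p 0.614) and 0.62 in ventral hippocampus (adjusted p 0.0243). After GC subtraction the ventral Handling value was 0.57 and no longer passed (adjusted p 0.0609), while the 6 values after Restraint and Swim did.

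Ier2, the least abundant of the 8 genes, had mean counts of 39.4 to 133, and its derived standard errors reached 0.24 on the log2 scale. In whole hippocampus its level was 1.90 CPM in Homecage, 3.56 after Handling, 3.42 after Restraint and 4.46 after Swim. In ventral hippocampus it was 2.18, 3.97, 3.79 and 5.40 CPM in the same order. In dorsal hippocampus it was 3.0, 4.23, 2.89 and 3.58, so the dorsal Restraint mean was below Homecage. The authors' deposited tables give 0.91 (adjusted p 0.00342), 0.85 (4.97e-05) and 1.23 (7.31e-08) for Handling, Restraint and Swim in whole hippocampus. In ventral hippocampus they give 0.84 (adjusted p 0.0351), 0.80 (0.0227) and 1.31 (1.43e-09). In dorsal hippocampus the values were 0.49, -0.05 and 0.24, none of which passed, and the 95% interval for dorsal Restraint ran from -0.42 to 0.32. With the GC trend subtracted, dorsal Restraint turned to 0.15, and ventral Handling (0.74, adjusted p 0.134) and ventral Restraint (0.68, 0.105) no longer passed. Ier5 was far more abundant, at 586 to 915 mean counts, and passed in no table. Its log2 fold changes ran from -0.13 in dorsal Restraint to 0.26 in whole Swim (adjusted p 0.626), and 3 of 9 were higher at an unadjusted p under 0.05.

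Tiparp was the 1 gene of the set that passed in all 3 Handling tables, and Handling gave its highest level in every region. In whole hippocampus its level was 16.6 CPM in Homecage, 23.6 after Handling, 20.9 after Restraint and 20.7 after Swim. In dorsal hippocampus it was 16.0, 22.5, 20.5 and 21.5 CPM. In ventral hippocampus it was 15.6, 19.9, 18.3 and 18.2. The Homecage levels of the 3 regions thus lay between 15.6 and 16.6, and every treated group lay above them. The authors' deposited tables give log2 fold changes after Handling of 0.50 in whole (derived standard error 0.09, adjusted p 9.77e-05), 0.48 in dorsal (0.12, 0.0442) and 0.36 in ventral hippocampus (0.09, 0.0098). After Restraint they were 0.32 (adjusted p 0.00228), 0.36 (0.0372) and 0.26 (0.0799) in the same order of regions, and after Swim 0.32 (0.112), 0.44 (0.0011) and 0.23 (0.0441). With the GC trend subtracted, the dorsal values after Handling (0.45, adjusted p 0.087), Restraint (0.31, 0.211) and Swim (0.33, 0.0651) kept their direction but no longer passed, and those of whole Swim (0.37, 0.0136) and ventral Restraint (0.30, 0.0278) passed. Ventral Swim was lost under total-count scaling (adjusted p 0.0522).

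**Figure D2:**
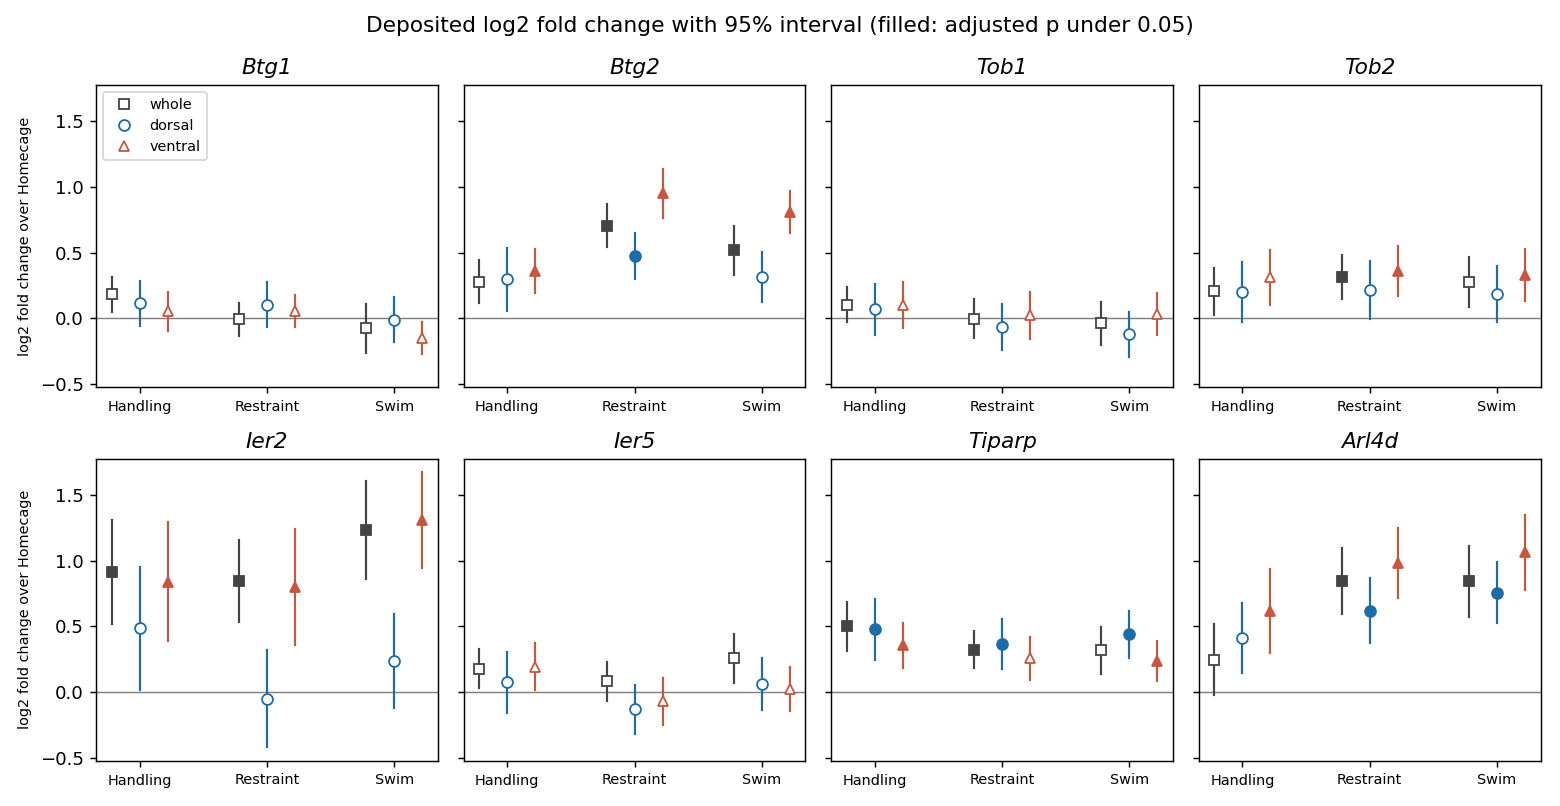
Deposited log2 fold change over Homecage (vertical axis) of each gene after Handling, Restraint and Swim, with squares for whole, circles for dorsal and triangles for ventral hippocampus, filled where the adjusted p is under 0.05. Lines are 95% intervals derived from the deposited p-values. Ier2 has the widest intervals, and its dorsal values of 0.49, -0.05 and 0.24 lie below those of the other regions.

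Per length of the longest transcript, Tob1 had the highest median level of the 12 groups, at 10.6 CPM per kilobase, followed by Ier5 at 9.48, Btg2 at 7.34, Tob2 at 6.28, Arl4d at 6.07, Btg1 at 6.05, Tiparp at 4.82 and Ier2 at 2.35. The ranges over the 12 groups of Btg2 (4.76 to 9.17), Tob2 (4.88 to 7.28), Arl4d (2.92 to 10.3), Btg1 (4.94 to 8.22) and Tiparp (3.71 to 5.62) overlapped, while that of Ier2 (1.25 to 3.55) overlapped only that of Arl4d. Tob1 (9.87 to 11.7) overlapped Ier5 (7.36 to 11.6) and Arl4d, and Ier5 also overlapped Btg2, Btg1 and Arl4d. With the mean transcript length in place of the longest, Tob2 came to 12.7, Tiparp to 10.8 and Btg1 to 10.7, above Tob1 (10.6) and Ier5 (9.48). The places of Tob2, Tiparp and Btg1, and with them the top place of Tob1, thus rest on which transcript is used. The other genes, Tob1, Ier5, Btg2, Arl4d and Ier2, kept their values and their order, and Ier2 was lowest either way.

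In Homecage mice, 5 of the 8 genes were lower in ventral than in dorsal hippocampus, where 20.0% of all genes were called lower and 18.4% higher. Arl4d differed most, with a mean of 195 counts in dorsal and 101 in ventral hippocampus, and a log2 difference, ventral minus dorsal, of -1.09 in the authors' deposited table (95% interval -1.41 to -0.77, adjusted p 2.08e-10). Ier5 followed at -0.53 (adjusted p 8.52e-06), then Ier2 at -0.50 (0.0364), Tob2 at -0.36 (0.0162) and Btg2 at -0.35 (0.000919). Btg1, Tob1 and Tiparp gave -0.12, -0.17 and -0.08 and did not pass. Some other gene lists leaned the same way, but not all. Of 21 immediate early genes listed for comparison, 12 were lower in ventral hippocampus and 3 higher. Of 14 glucocorticoid receptor targets, 7 were lower and 3 higher. Of 19 genes of the aryl hydrocarbon receptor pathway and the mono-ADP-ribosylation enzymes, 4 were higher and 2 lower. With the GC trend subtracted, Ier2 (-0.20, adjusted p 0.486) and Tob2 (-0.26, 0.103) no longer passed, and Ier2 did not pass under total-count scaling either (-0.46, 0.0551). Markers of cell types also differed between the regions. Of 8 hippocampal neuron markers, 5 were lower in ventral hippocampus and 1 higher, with a median log2 difference of -0.87. Of 7 microglia markers 5 were lower, and of 8 choroid plexus markers 3 were lower and 1 higher. Of 8 meninges markers 4 were higher and 1 lower, and of 5 thalamus markers 3 were higher and 1 lower. Of 7 ependyma markers 2 were higher, and of 12 endothelial markers 1 was. Their part in the regional values was not tested.

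After treatment the regional ratio of 3 genes crossed 1, those of Btg2 and Ier2 after Restraint and Swim and that of Tob1 only to 1.01 after Swim. These are ratios of group means, without an error or a test and without subtraction of the GC trends. They come from the same libraries as the Homecage comparison and the tested differences below, so they are not separate results. The ventral over dorsal ratio of the mean level of Btg2 was 0.807 in Homecage, 0.842 after Handling, 1.12 after Restraint and 1.12 after Swim. That of Ier2 was 0.726, 0.938, 1.31 and 1.51 in the same order. Arl4d stayed lower in ventral hippocampus in all 4 conditions, with ratios of 0.482, 0.561, 0.620 and 0.592. Ier5 (0.696 to 0.776), Tob2 (0.798 to 0.883), Btg1 (0.856 to 0.945) and Tiparp (0.843 to 0.974) also had ratios under 1 throughout, and Tob1 ran from 0.912 in Homecage to 1.01 after Swim.

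**Figure D3:**
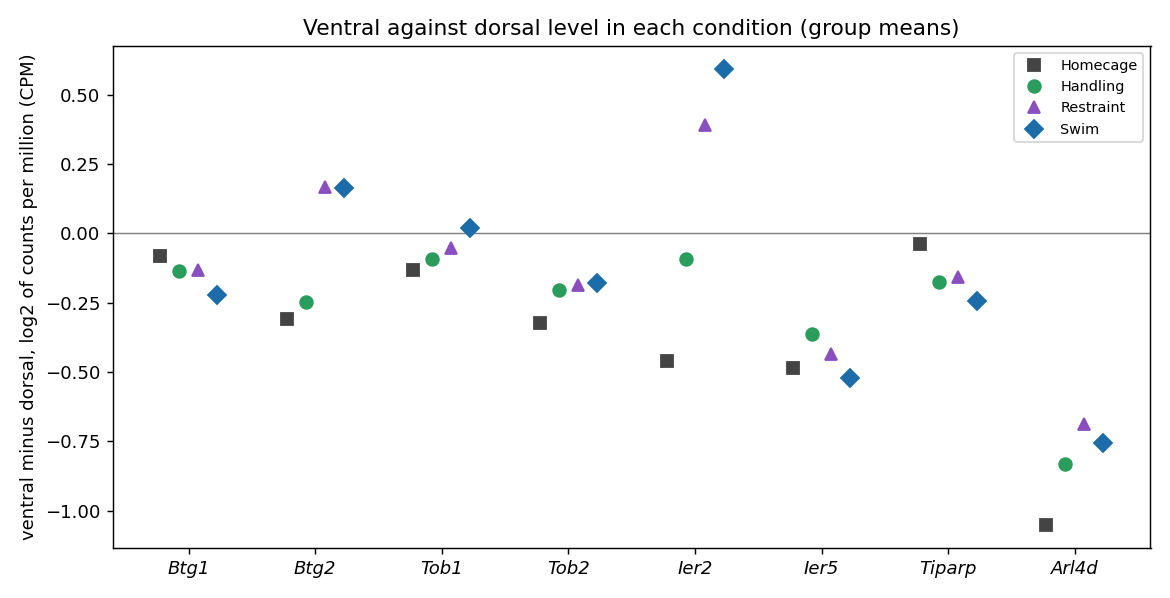
Ventral minus dorsal level of each gene on the log2 scale of CPM (vertical axis), from group means of 5 libraries, in Homecage (squares), Handling (circles), Restraint (triangles) and Swim (diamonds). Btg2 and Ier2 lie below 0 in Homecage and above 0 after Restraint and Swim, while Arl4d lies below 0 in all 4 conditions.

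The difference between regions was tested as the response in ventral minus that in dorsal hippocampus on the log2 scale, with Benjamini-Hochberg adjustment over all genes in both tables. These tests use the same contrasts by which the genes were chosen, so they give the size of a difference beside its error and not independent evidence. After Handling none of the 8 genes differed between regions, at the adjusted threshold or at an unadjusted p under 0.05 (0.0889% of all genes differed). After Restraint Btg2 differed (1.98% of all genes did), rising by 0.95 in ventral and 0.47 in dorsal hippocampus, a difference of 0.48 (95% interval 0.22 to 0.73, adjusted p 0.0238). After Swim Btg2 and Ier2 differed (10.2% of all genes did). The difference for Btg2 was 0.50 (95% interval 0.25 to 0.75, adjusted p 0.00516), and that for Ier2, which stood at 1.31 in ventral and 0.24 in dorsal hippocampus, was 1.07 (95% interval 0.56 to 1.58, adjusted p 0.00348). For Arl4d the difference was 0.37 after Restraint (95% interval 0.0017 to 0.73, adjusted p 0.381) and 0.31 after Swim (-0.06 to 0.68, 0.277). Tiparp had the opposite sign, at -0.12, -0.11 and -0.20 for Handling, Restraint and Swim, none of which passed.

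The differences moved unequally when the GC trends, which had opposite signs in the 2 regions, were subtracted. For Btg2, at 49.7% GC, subtraction of the trend from both tables left 0.50 after Restraint (adjusted p 0.0857) and 0.53 after Swim (adjusted p 0.0329). For Ier2, at 60.9% GC, it reduced the Swim difference to 0.65 (adjusted p 0.534). The Tiparp difference after Swim moved from -0.20 to 0.02. With errors 1.25 times as wide none of the 3 differences passed. Markers of cell types moved in the same tables. The summed level of choroid plexus markers was 243 CPM in dorsal Homecage and 2158 CPM after dorsal Restraint, and 196 and 213 CPM in the ventral groups of that comparison. Of 8 hippocampal neuron markers, 2 rose after ventral Restraint and 3 after ventral Swim, and 2 of 5 thalamus markers fell after ventral Swim, while 1 of 5 rose after dorsal Swim. Of 7 microglia markers, 1 rose after ventral Swim. Their part in the differences of Btg2 and Ier2 was not tested.

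**Figure D4:**
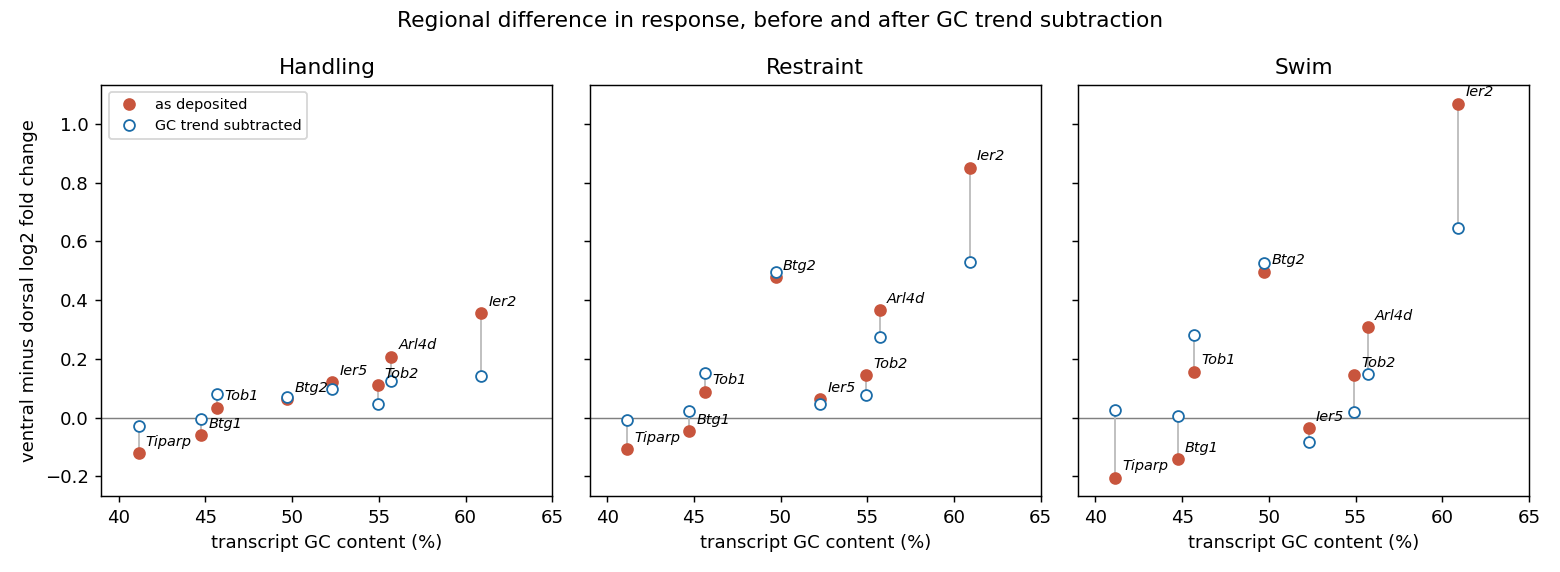
Ventral minus dorsal log2 fold change (vertical axis) of each gene against the GC content of its transcripts in percent, for Handling, Restraint and Swim, as deposited (filled) and after subtraction of the GC trend (open), joined by a line for each gene. Btg2 moves little, from 0.50 to 0.53 after Swim, while Ier2 moves from 1.07 to 0.65.

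The treatments were compared with each other within a region in the same way. Both tables of such a pair share their Homecage libraries, so the error is an upper bound. Of 9 pairs, 1 gave a call among the 8 genes. In ventral hippocampus Btg2 rose more after Restraint than after Handling, by 0.59 (95% interval 0.34 to 0.84, adjusted p 0.00383), where 0.139% of all genes differed. This call was also made after GC subtraction (0.59, adjusted p 0.00389) and was lost with errors 1.25 times as wide. The summed level of choroid plexus markers was 2072 CPM after ventral Handling and 213 CPM after ventral Restraint. The part of that tissue in this difference was not tested. Ventral Swim minus Handling gave 0.45 for Btg2 (adjusted p 0.0887) and 0.45 for Arl4d (adjusted p close to 1), with no gene of the set past the threshold, 3 at an unadjusted p under 0.05 and 0.117% of all genes called. Ventral Swim minus Restraint gave no call and 1 of 8 at an unadjusted p under 0.05 (0.00730% of all genes called). In whole hippocampus Restraint minus Handling gave none (0.0294% of all genes called), with 3 of 8 at an unadjusted p under 0.05, among them Btg2 at 0.43 and Arl4d at 0.60. Whole Swim minus Handling gave none (0.00734%), with 2 of 8 at an unadjusted p under 0.05, and whole Swim minus Restraint gave none at either threshold (0% of all genes). In dorsal hippocampus Restraint minus Handling (0.0147% of all genes called), Swim minus Handling (0.0221%) and Swim minus Restraint (0%) gave none at either threshold. Tiparp was lower after Restraint and Swim than after Handling in each region, with differences of -0.18 and -0.18 in whole, -0.11 and -0.04 in dorsal and -0.10 and -0.12 in ventral hippocampus, and none of these passed.

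Of 53 other genes listed from the families and pathways of the 8, 2 passed after treatment in any of the 9 tables. Of 17 listed genes of the CCR4-NOT and PAN2-PAN3 deadenylases and poly(A)-binding proteins, none passed in any of the 9 tables of the authors, and 14 of 153 values had an unadjusted p under 0.05. Their medians over the tables lay between -0.08 and 0.04, and the catalytic subunit Cnot7, which BTG and TOB proteins bind, had log2 fold changes of -0.14 to 0.12. Of 12 listed IER and PP2A genes, Hsf1 was the 1 gene besides Ier2 that passed, at 0.26 in the authors' deposited table of ventral Swim (adjusted p 0.0057). Of 19 listed genes of the aryl hydrocarbon receptor pathway and the mono-ADP-ribosylation enzymes, Tiparp rose in 7 tables and Macrod2, which removes mono-ADP-ribose, fell by 0.15 in ventral Swim (adjusted p 0.0398). The receptor Ahr lay between -0.30 and -0.000282 and its repressor Ahrr between -0.23 and 0.17. Among 8 listed ARL4 and cytohesin genes Arl4d alone passed after treatment in any of the 9 tables, with Arl4a at -0.18 to 0.10, Arl4c at -0.11 to 0.11 and Arf6 at -0.06 to 0.06. Immediate early genes chosen for comparison rose in 10 to 19 of 21 or 22 listed members per table, with medians of 0.57 to 0.96, and 1 of them fell in ventral Swim (Klf6, named after its value was seen). All genes were called higher in 0.118% to 4.65% of cases per table. The glucocorticoid receptor targets rose in 2 to 7 of 14, with medians of 0.24 to 0.49. The medians of the 8 genes were 0.16 to 0.33 and those of all genes between -0.01 and 0.01.

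Some of these partners differed between regions in Homecage mice, a comparison in which 20.0% of all genes were called lower and 18.4% higher. Arl4d at -1.09 stood beside its relatives Arl4a at 0.42 (adjusted p 6.54e-07) and Arl4c at 0.44 (3.17e-09), which were higher in ventral hippocampus in the authors' deposited table. The cytohesins were lower there, with Cyth4 at -0.69, Cyth1 at -0.53, Cyth3 at -0.32 and Cyth2 at -0.15 (adjusted p 0.0427). Ier5l, a relative of Ier5, was lower at -1.25 (adjusted p 0.000133), and the PP2A subunit Ppp2r2b was higher at 0.51 (1.97e-16). Of the deadenylation genes 4 of 17 were lower in ventral hippocampus and none higher, a share of lower genes near that of all genes, with Tnks1bp1 at -0.38 and the CCR4-NOT subunit Cnot3 at -0.32. Of the receptor pathway genes 4 of 19 were higher, among them Arnt2, a partner of the receptor, at 0.54 and Ahr at 0.27 (adjusted p 0.0128), and 2 were lower, Macrod1 at -0.64 and Zc3hav1 at -0.56. The share of higher genes was again near that of all genes.

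The genes whose pattern over the 9 treatment tables was most like that of each member were sought among 80 genes. These had passed in at least 3 tables, of 13394 genes listed in all 9. Members of the set among the 80 were left out as neighbours. The measure was Pearson's r of the log2 fold changes, given without a p because 3 tables of each region share controls. It compares how values vary about their mean and not their sign, so a gene that fell can be near a gene that rose. Btg2 was nearest to the glucose transporter Slc2a1 (r = 0.94), the stress factor Atf3 (0.92) and the activity-dependent factor Npas4 (0.86). Tob2 was nearest to Atf3 (0.88), Rasd1 (0.87) and Gadd45g (0.86). Ier2 was nearest to Gadd45b (0.95), Junb (0.93) and Fos (0.92), and Arl4d to Arrdc2 (0.94), the kinase Sik1 (0.92) and Nfkbia (0.91), which restrains NF-kappaB. Tiparp was nearest to the potassium channel Kcnj2 (0.87), Clec2d (0.74) and Necab1 (0.71). Tiparp itself lay above 0 in all 9 tables. The log2 fold changes ran from -0.65 to 0.23 for Kcnj2, -0.83 to -0.18 for Clec2d and -0.46 to 0.17 for Necab1. For Btg1 (P4ha1, Fosl2 and Fam46a, 0.84 to 0.74), Tob1 (Arc, Hes5 and Tnfrsf25, 0.96 to 0.86) and Ier5 (Wnt9a, Egr1 and Clec2d, 0.67 to 0.64) the values compared are small changes that did not pass. Among these neighbours Hes5 ran from -1.71 to 0.04 and Wnt9a from -0.95 to -0.34, while Arc (0.57 to 1.27) and Egr1 (0.61 to 1.07) stayed above 0. Some of the values of r moved much with the GC trend. After its subtraction r was 0.75 to 0.93 for the 3 neighbours of Btg2, 0.84 to 0.90 for those of Ier2 and 0.85 to 0.91 for those of Arl4d, but 0.53 to 0.76 for those of Tob2, 0.25 to 0.69 for those of Tiparp and 0.51 to 0.75 for those of Tob1. Within the set, Btg2 and Arl4d went from 0.84 to 0.78, Tiparp and Arl4d from -0.92 to -0.83, Btg2 and Tiparp from -0.90 to -0.62, Tob2 and Ier2 from 0.61 to -0.02 and Ier2 and Tiparp from -0.45 to 0.38.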

How the data were processed

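Poly(A)-enriched RNA of 60 libraries in 12 groups was sequenced, and groups were taken from the labels' titles. Each deposited table compares 2 groups. Per the file headers it holds the mean estimated count of either group, the fold change as a ratio, its log2 value, and a p-value with its adjusted p. Which test, aligner and counter the authors used is not given in the sources used here. Bowtie 0.12.2 and mm8 appear without a role in the submitters' processing notes. The 8 genes and all lists were chosen with earlier results of these data known.

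Calls are the authors' adjusted p under 0.05. CPM levels are a group mean over the sum of its column in the table, repeated entries being dropped. A standard error was derived by dividing the size of the log2 fold change by the normal quantile of its p-value. Differences of log2 fold changes were tested against the normal distribution with Benjamini-Hochberg adjustment over all genes (scipy 1.17.1), after the script had been tested on simulated data. These errors are approximate and ignore any pairing of regions. The GC trend was a lowess fit (fraction 0.3, statsmodels 0.14.6) on GC content from GENCODE M21, which also gave transcript lengths. Named genes are the 8, up to 4 called members per list and table, Fos, Egr1 and Sgk1, and the 3 nearest genes in pattern; other partners were named after their values were seen. The alternatives were other thresholds, total-count scaling, GC subtraction, a filter on low counts and wider errors (1.25 times the derived error). Values per library were not used here, so intervals come from the deposited p-values alone.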

Additional observations from a re-analysis of the deposited data

Results flagged for a closer look

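Differences between regions singled out 3 results, each because the tested ventral and dorsal responses to 1 treatment differed. Btg2 rose more in ventral than in dorsal hippocampus after Restraint, by 0.48 on the log2 scale, and after Swim, by 0.50. Ier2 rose by 1.31 in ventral hippocampus after Swim and gave 0.24 in dorsal hippocampus, a difference of 1.07. After subtraction of the GC trend the Btg2 difference after Swim passed (adjusted p 0.0329), and those of Btg2 after Restraint (0.0857) and of Ier2 (0.534) did not. Groups of 5 could not be searched for a library that stands apart, because values per library were not used here.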

How the results depend on the processing

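No paired analysis was possible because the tables used here hold group means and no values per library, and for the same reason leaving out each replicate in turn was not run. Total-count scaling, the filter on low counts and an adjusted p of 0.1 kept the number of called genes within 1.5 times in all 10 tables. At an adjusted p of 0.01 the number fell to 0 in dorsal Handling, 2 in ventral Handling, 2 in ventral Restraint, 3 in ventral Swim and 3 in the Homecage regions. After GC subtraction it was 0 in dorsal Handling, 1 in dorsal Swim, 2 in ventral Handling and 3 in the Homecage regions. The number of differing genes became 0 for the regional response to Restraint and 1 for that to Swim after GC subtraction. With wider errors it was 0 for both and 0 for ventral Restraint minus Handling, and at an adjusted p of 0.1 it was 1 for ventral Swim minus Handling. Of the 80 log2 fold changes, 4 changed sign after GC subtraction, none of them called: Btg1 (0.012) and Tob1 (0.016) in whole Restraint, Ier2 in dorsal Restraint (0.15) and Ier5 in ventral Swim (-0.00081). Tob1 in whole Restraint also did so under total-count scaling (0.00089). GC subtraction ended 10 calls and added 2, and it moved the likeness of patterns, a comparison chosen after seeing the data, most for Tiparp and Necab1 (r from 0.71 to 0.25) among the named neighbours. Ier2, at 39.4 to 133 mean counts, is where depth limits the values most.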
